A study of Rattus norvegicus with 12 samples.

Results

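The comparison described here sets low sodium with angiotensin II (AngII) against normal sodium without it, in left ventricles of male Sprague-Dawley rats on 1-colour Agilent arrays, and the arrays were chosen by their titles: 3 for each group, 6 of the 12 in the series. Rats of the low sodium with AngII group had less than 0.01% NaCl in their food and received AngII under the skin at 200 ng/kg/min over the last 4 weeks, whereas rats of the normal sodium group had 0.64% NaCl and no infusion. All of them, like the rats of the other two groups (normal sodium with AngII, and low sodium), ate 60% fructose for 8 weeks, so there was no ventricle from a rat on ordinary chow, and each diet was given to 40 rats. The labels name no pooling and no age. They do not say whether the rats behind the 3 arrays of a group were housed or operated on apart. The p-values therefore measure the spread between these samples. Both factors differ between the groups, and the comparison asks whether salt restriction leaves AngII-infused ventricles at, or below, the level of uninfused ventricles on normal salt.

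AngII is the effector hormone of the renin-angiotensin system. Through its type 1 receptor it constricts vessels, releases aldosterone and drives growth of cardiomyocytes and deposition of collagen in the heart, and dietary salt is known to modify these actions. Salt restriction by itself activates renin, and a high-fructose diet is used in rats to model metabolic syndrome.

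Signals are given per array with the 75th percentile of that array set to 100, and differences are log2 values, low sodium with AngII minus normal sodium, with limma standard errors after ± (n = 3 arrays per group). The arrays were alike in brightness, with a 75th percentile of 1399 to 1988 intensity units, a local background of 20 to 29.5 and no saturated spot. Pearson's r across probes, which are not independent, was 0.987 to 0.992 among low sodium with AngII arrays, 0.980 to 0.990 among normal sodium arrays and 0.977 to 0.993 between the groups. Normal sodium replicate 1 stood apart by 88 spots of uneven brightness, against 0 to 3 on the others, and by the lowest array weight (0.245). Low sodium with AngII replicate 2 had the highest weight, 5.91, against 0.654 for replicate 1 and 0.514 for replicate 3. Values given with array weights therefore rest mainly on that array for its group. Each slide held 1 array of every group at a fixed position, so the position on the slide and the group cannot be told apart.

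Adult sarcomere genes, the markers of cardiomyocytes, bore out heart muscle, and the chamber named in the label was not tested. Myh6, the fast alpha myosin heavy chain of rat heart, had signals of 22530, 21810 and 18200 on low sodium with AngII arrays and 32460, 24410 and 19420 on normal sodium arrays. Of 14 sarcomere genes, 10 were lower and 4 higher on low sodium with AngII, none had an unadjusted p under 0.05, and the median log2 difference was -0.07. For 12 of them the 95% interval of the difference lay within 1.5-fold.

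No gene passed the test between the groups. With limma and Benjamini-Hochberg adjustment, 0 of 20020 probes (0%) were called at an adjusted p under 0.05, and the smallest adjusted p was 0.5971. At an unadjusted p under 0.05 there were 1166 probes (5.82%), with 473 higher (2.36%) and 693 lower (3.46%) on low sodium with AngII. This split depended on the scaling: 40.6% of these probes were higher with the 75th percentile, 55.7% when arrays were scaled to their medians and 57% in the authors' own normalised values. Without normal sodium replicate 2, 4 probes were called, and 979 probes were higher and 1227 lower at the unadjusted threshold.

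The intervals bound how far apart the groups were. Among 11211 genes, each valued by its brightest tested probe, 6283 (56%) had a 95% interval lying wholly within 1.5-fold of normal sodium. Another 9 genes (0.0803%) had an interval wholly above 1.5-fold higher and 11 (0.0981%) wholly below 1.5-fold lower, and for the remainder the arrays left a difference of that size undecided. Over all 20020 probes tested, the median half-width of the interval was 1.31-fold. The median log2 difference over all genes was -0.03, with 4915 genes (43.8%) above 0, and 697 genes (6.22%) had an unadjusted p under 0.05, of which 262 were higher (2.34%) and 435 lower (3.88%). In 464 of the 11167 genes with all 6 values (4.16%) every low sodium with AngII array lay above every normal sodium array, and in 660 (5.91%) every one lay below.

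Among the 10 genes with the smallest p on the lower side, several are known from immune cells, kinin formation or growth control, and in all 10 the 3 low sodium with AngII arrays lay below the 3 normal sodium arrays, which the rule for naming them required. Each had an adjusted p of 0.5971 in limma. Adgre1, which encodes the macrophage surface receptor F4/80, had signals of 12.1, 12.5 and 10.5 on low sodium with AngII arrays, against 20.7, 17.6 and 21.4 on normal sodium arrays, a log2 difference of -0.76 ± 0.15. Its mean was 18.5 on normal sodium with AngII and 10.3 on low sodium, so both low sodium groups lay on one level and both normal sodium groups on another. In whole ventricle, fewer cells of a type and less RNA per cell cannot be told apart.

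Mycn, a growth-promoting transcription factor of the MYC family, had signals of 10.1, 12.4 and 12.7 with low sodium and AngII, against 34.0, 17.3 and 31.8 on normal sodium, a difference of -1.19 ± 0.26. Plk2, a polo-like kinase induced by serum and stress, had 15.9, 19.2 and 20.2, against 32.6, 28.0 and 31.8 on normal sodium, a difference of -0.75 ± 0.16. Both showed the pattern of Adgre1, with means of 11.2 (Mycn) and 18.8 (Plk2) on low sodium and of 25.6 (Mycn) and 29.7 (Plk2) on normal sodium with AngII. Car4, a carbonic anhydrase anchored to the outer face of endothelial and muscle membranes, had 357.8, 347.9 and 306.5, against 624.4, 476.6 and 711.4 on normal sodium, a difference of -0.82 ± 0.18. For Car4 all the other groups lay below normal sodium, with means of 404.6 on normal sodium with AngII and 305.3 on low sodium.

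The other genes on this side lay nearer to background. Tfpi2, an inhibitor of serine proteases, differed by -0.90 ± 0.20, and Sugct, a mitochondrial glutarate CoA-transferase, by -0.90 ± 0.17. Cd200r1, an inhibitory receptor of myeloid cells that was well above background on 1 of 3 low sodium with AngII arrays, differed by -0.94 ± 0.18, and Pebp4, of the phosphatidylethanolamine-binding protein family, by -1.70 ± 0.37. With normexp, another background correction, these became -0.48 (Tfpi2), -0.43 (Sugct), -0.34 (Cd200r1) and -0.61 (Pebp4), with the signs kept.

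The kallikrein gene Klk1 and its relative Klk1b3 were both among these 10 genes. Klk1 encodes tissue kallikrein, the protease that frees kinins, peptides that dilate vessels and oppose AngII, from kininogen. They belong to a family of closely related copies, so a probe may read RNA of more than one, which was not tested, and their separate values are uncertain. The promoters are printed because both copies are among the genes named here. The sequences come from RefSeq (build GRCr8, plus strand, 250 bases before to 50 after the start, 5′ to 3′), and capitals mark the longest run of letters that the pair shares.
Klk1, chr1:103778902-103779201: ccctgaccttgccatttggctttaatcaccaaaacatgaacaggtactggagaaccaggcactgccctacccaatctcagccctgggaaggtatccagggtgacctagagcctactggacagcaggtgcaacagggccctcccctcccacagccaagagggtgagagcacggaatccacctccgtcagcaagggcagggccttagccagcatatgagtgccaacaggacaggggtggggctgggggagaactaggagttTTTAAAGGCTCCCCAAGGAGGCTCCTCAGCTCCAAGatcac
Klk1b3, chr1:103845397-103845696: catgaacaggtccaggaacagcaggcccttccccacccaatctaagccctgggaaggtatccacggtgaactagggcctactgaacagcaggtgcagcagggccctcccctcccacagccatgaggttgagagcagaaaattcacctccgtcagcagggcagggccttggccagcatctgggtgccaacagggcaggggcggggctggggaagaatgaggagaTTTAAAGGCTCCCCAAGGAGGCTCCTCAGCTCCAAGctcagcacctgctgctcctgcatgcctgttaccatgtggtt
The run is 36 bases long. Of the 33469 promoters of the same length, the 2 that hold it (0.00598%) are this pair, from which it was taken. Of 264 aligned bases 233 were identical (88.3%).

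Klk1 had signals of 3.46, 3.07 and 3.66 on low sodium with AngII arrays, against 6.80, 5.18 and 5.66 on normal sodium arrays, a difference of -0.79 ± 0.15. Klk1b3 had 1.23, 2.17 and 2.29, against 4.05, 4.90 and 5.19 on normal sodium, a difference of -1.36 ± 0.29. Relative to normal sodium, Klk1 stood at 0.07 and Klk1b3 at 0.09 on normal sodium with AngII, and at -0.25 (Klk1) and -0.17 (Klk1b3) on low sodium. The low sodium arrays of Klk1, at 5.01, 4.77 and 4.96, also lay below all 3 normal sodium arrays, whereas those of Klk1b3, at 4.21, 3.49 and 4.96, overlapped them. Both were dim, and normexp gave -0.49 for Klk1 and -0.53 for Klk1b3.

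Usp28 and Ddit4 were among the 10 genes with the smallest p on the higher side, all 10 again with an adjusted p of 0.5971 in limma and, by the rule, with groups that did not overlap. Usp28, a deubiquitinating enzyme, had signals of 386.4, 352.3 and 365.7 on low sodium with AngII arrays, against 234.7, 271.9 and 277.0 on normal sodium arrays, a difference of 0.50 ± 0.10. Ddit4, an inhibitor of mTORC1 that glucocorticoids and hypoxia induce, had 353.0, 270.7 and 265.6, against 152.5, 133.8 and 129.8 on normal sodium, a difference of 1.09 ± 0.26. The means of the remaining groups lay between these levels for Ddit4, at 198.9 on normal sodium with AngII and 246.7 on low sodium, and for Usp28 the low sodium mean of 393.8 was higher still.

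Bcl11b, a zinc finger transcription factor best known from T cell development, had signals of 22.8, 18.98 and 16.2, against 8.09, 8.58 and 13.1 on normal sodium, a difference of 0.98 ± 0.21. Arc, an immediate early gene that codes for a cytoskeleton-associated protein, had 37.4, 25.3 and 22.7, against 14.95, 12.6 and 13.1 on normal sodium, a difference of 1.04 ± 0.24. Gpr22, an orphan receptor expressed in heart and brain, had 14.6, 16.1 and 14.3, against 5.07, 11.3 and 4.68 on normal sodium, a difference of 1.22 ± 0.29. Normal sodium replicate 2 was the high array of its group for Gpr22, and without it the difference was 1.62 with an adjusted p of 0.02239 in limma, the smallest over its alternatives, which reached up to 0.9999. Lmbrd1, a lysosomal cobalamin transporter (1.34), Cd244l1 (-1.20) and a probe with no gene name (1.45) were the others called without that array.

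The remaining genes on this side changed with the background correction. Nacad, a NAC-alpha domain protein, stood at 26.0, 25.0 and 24.1, against 7.12, 7.77 and 17.6 on normal sodium, a difference of 1.34 ± 0.30. Npy1r, the Y1 receptor for the sympathetic co-transmitter neuropeptide Y, stood at 4.28, 3.88 and 5.15, against 1.95, 2.43 and 3.11 on normal sodium, a difference of 0.85 ± 0.20. Hao1 (a peroxisomal glycolate oxidase), Ccdc146 (a coiled-coil protein) and Chad (the matrix protein chondroadherin) were each well above background on only 1 of 3 normal sodium arrays. Hao1 had 2.44, 1.84 and 3.24, against 0.597, 0.715 and 0.898 on normal sodium. Ccdc146 had 1.25, 1.29 and 1.11, against 0.281, 0.448 and 0.580 on normal sodium. Both were well above background on all 3 arrays only in low sodium with AngII and entered the test through that group, so their being higher there was built into the filter. Chad had 12.6, 2.43 and 2.94, against 0.538, 0.748 and 1.104 on normal sodium, with low sodium with AngII replicate 1 far above the others. With normexp the differences were 0.80 (Nacad), 0.38 (Npy1r), 0.46 (Hao1), 0.23 (Ccdc146) and 0.89 (Chad). The plot of signals by array sets 12 of the named genes beside the other two groups.

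**Figure D1:**
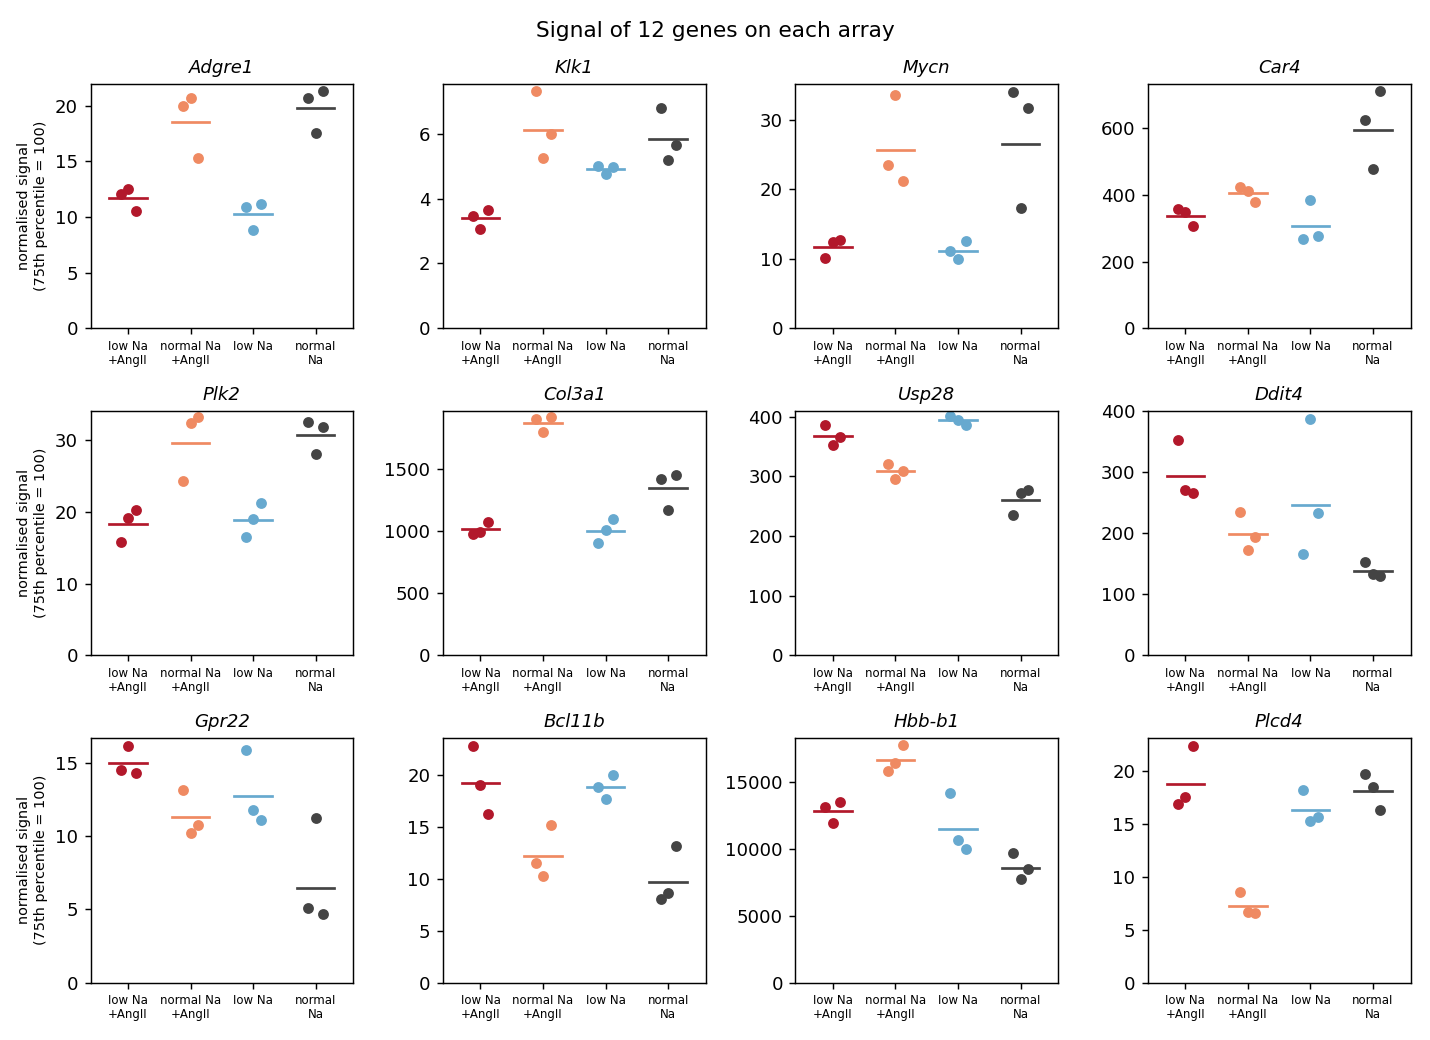
Normalised signal (75th percentile of each array set to 100, linear axes from 0) of 12 named genes on all 12 arrays, 1 point per array, with bars at the mean of the log2 values of each group. Adgre1, Mycn and Plk2 are low in both low sodium groups, Usp28 is high in both, and Plcd4 is low only on normal sodium with AngII, whose mean is 7.24.

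Of the 34 gene lists, with 549 genes tested, the macrophage and monocyte markers had one of the lowest medians. Of 16 tested, 15 were lower and 1 higher on low sodium with AngII, 5 had an unadjusted p under 0.05, all lower, against 3.88% of all genes, and the median log2 difference was -0.36 against -0.03 over all genes. Within the slides the medians were -0.28, -0.40 and -0.46. Beside Adgre1, the 5 included Folr2, a folate receptor of resident macrophages, with 79.4, 81.8 and 77.9 on low sodium with AngII, against 159.0, 107.1 and 112.6 on normal sodium (-0.64 ± 0.20). They also included Aif1, the cytoskeletal protein IBA1, with 111.4, 140.2 and 114.3, against 169.7, 139.4 and 188.2 on normal sodium (-0.44 ± 0.14). The receptor for colony-stimulating factor 1, Csf1r (-0.61), and the complement component C1qa (-0.42) complete the 5. They were named after their values were seen, as was every member of a list below beyond the first 3. The list score (the mean of members, each centred on its mean over 12 arrays) ran from -0.24 to -0.12 on low sodium with AngII and from 0.09 to 0.27 on normal sodium, without overlap.

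For these markers the infused normal sodium ventricles were not high either: their median relative to normal sodium was 0.09, with 0 of 16 at an unadjusted p under 0.05 on the higher side. Relative to normal sodium with AngII, low sodium with AngII had a median of -0.53, with 15 of 16 lower and 8 at an unadjusted p under 0.05, against 8.05% of all genes. Low sodium without infusion stood at -0.41 relative to normal sodium. These comparisons share arrays with the main one, and they are given as levels only.

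MHC class II genes, which present antigen on macrophages, dendritic cells and B cells, had the lowest median of the lists, -0.60, with all 8 tested genes lower and 2 at an unadjusted p under 0.05, against 3.88% of all genes. The median was -0.43 to -0.95 with 1 array left out, the lowest without normal sodium replicate 2. RT1-Da, an alpha chain of the rat class II molecule, had 55.7, 85.1 and 71.6 on low sodium with AngII, against 157.0, 101.8 and 125.8 on normal sodium (-0.86 ± 0.20, and -0.56 in the authors' values). RT1-DMa, the peptide-loading chaperone subunit, had 17.1, 22.9 and 14.7, against 23.9, 26.2 and 26.9 on normal sodium (-0.51 ± 0.19, and -0.29 with array weights). For the list, slide 2 differed from the others, with a median of -0.12, against -0.64 on slide 1 and -0.80 on slide 3. The median on normal sodium with AngII was also below normal sodium, at -0.30.

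Lymphocyte markers had a median of -0.25, with 9 of 12 lower and 3 at an unadjusted p under 0.05, against 3.88% of all genes. The slide medians were -0.15, 0.11 and -0.64, and leaving out 1 array moved the median to between -0.39 (normal sodium replicate 2) and -0.07 (normal sodium replicate 3). The 3 were the cytotoxic granule genes Prf1 (-0.83 ± 0.24, and -0.55 after normexp) and Nkg7 (-0.60 ± 0.26, and -0.36 with array weights) and the T and NK cell surface gene Cd2 (-0.58 ± 0.25), and Cd2 was at -0.31 after normexp. Neutrophil markers gave -0.06, with 4 of 5 lower and none at an unadjusted p under 0.05, and slide medians of 0.35, 0.35 and -0.84. Adipocyte markers had 3 of 8 genes tested, all lower, with a median of -0.41, among them the adipogenic receptor Pparg (-0.41 ± 0.10) and complement factor D, Cfd (-0.45 ± 0.19). Nerve and glia markers gave -0.16 (0.05 without low sodium with AngII replicate 3), with 7 of 8 lower, and atrial markers 0.07, with 3 of 5 higher, and neither had a member at an unadjusted p under 0.05. The atrial markers varied widely between arrays, with differences from -0.28 to 2.20. Their list score ran from -0.13 to 0.89 on low sodium with AngII and from -0.80 to 0.40 on normal sodium.

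The matrix genes bear on the question most directly, since collagen deposition is a known action of AngII in the heart. Of 30 collagens and matrix proteins tested, 25 were lower and 5 higher on low sodium with AngII than on normal sodium, and the median was -0.21 with slide medians of -0.06, -0.04 and -0.42. The median was -0.12 without normal sodium replicate 3. The unadjusted threshold was passed by 4 on the lower side, against 3.88% of all genes, and by 2 on the higher side, against 2.34%. Col3a1, the chain of fibrillar type III collagen, had 973.6, 991.0 and 1074 on low sodium with AngII, against 1420, 1167 and 1453 on normal sodium, a difference of -0.41 ± 0.12 (adjusted p = 0.6613 in limma), and its groups did not overlap. Normexp gave -0.24, and the authors' values gave -0.26. Its mean was 1868 on normal sodium with AngII, so that it stood at 0.48 ± 0.12 there relative to normal sodium.

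Fbln5, a fibulin needed for elastic fibres, had 19.8, 16.1 and 13.4, against 27.4, 20.2 and 21.1 on normal sodium (-0.48 ± 0.19). The others on the lower side were the collagen-binding protein gene Sparc (-0.46) and the short-chain collagen gene Col8a1 (-0.55). On the higher side were Fmod, fibromodulin, with 117.5, 52.8 and 107.9, against 64.9, 36.2 and 47.0 on normal sodium (0.87 ± 0.30, and 0.40 with array weights), and the basement membrane collagen gene Col18a1 (0.41). Both also stood above normal sodium in the infused normal sodium group, at 0.55 for Fmod and 0.51 for Col18a1.

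Col1a1, the main fibrillar collagen chain, lay at the normal sodium level within wide limits. It had 339.6, 377.6 and 301.1 on low sodium with AngII, against 281.3, 310.8 and 505.1 on normal sodium, a difference of -0.06 ± 0.20 with a 95% interval of -0.51 to 0.38. It was 0.064 after normexp, 0.02 when low sodium with AngII replicate 3 was left out and 0.19 when normal sodium replicate 3 was, and the second probe of the gene gave -0.34. Postn, a matricellular protein of activated fibroblasts, had 1.19, 0.727 and 1.00, against 1.39, 1.05 and 1.37 on normal sodium (-0.40 ± 0.21, and 0.16 in the authors' values). It was well above background on 2 of 3 low sodium with AngII arrays and on 1 of 3 normal sodium arrays. Relative to normal sodium, the median of the 30 genes was 0.28 on normal sodium with AngII, with 26 above 0 and 10 of them at an unadjusted p under 0.05, against 4.42% of all genes. Relative to normal sodium with AngII, low sodium with AngII had a median of -0.42, with 28 lower and 17 at an unadjusted p under 0.05, against 8.05% of all genes.

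**Figure D2:**
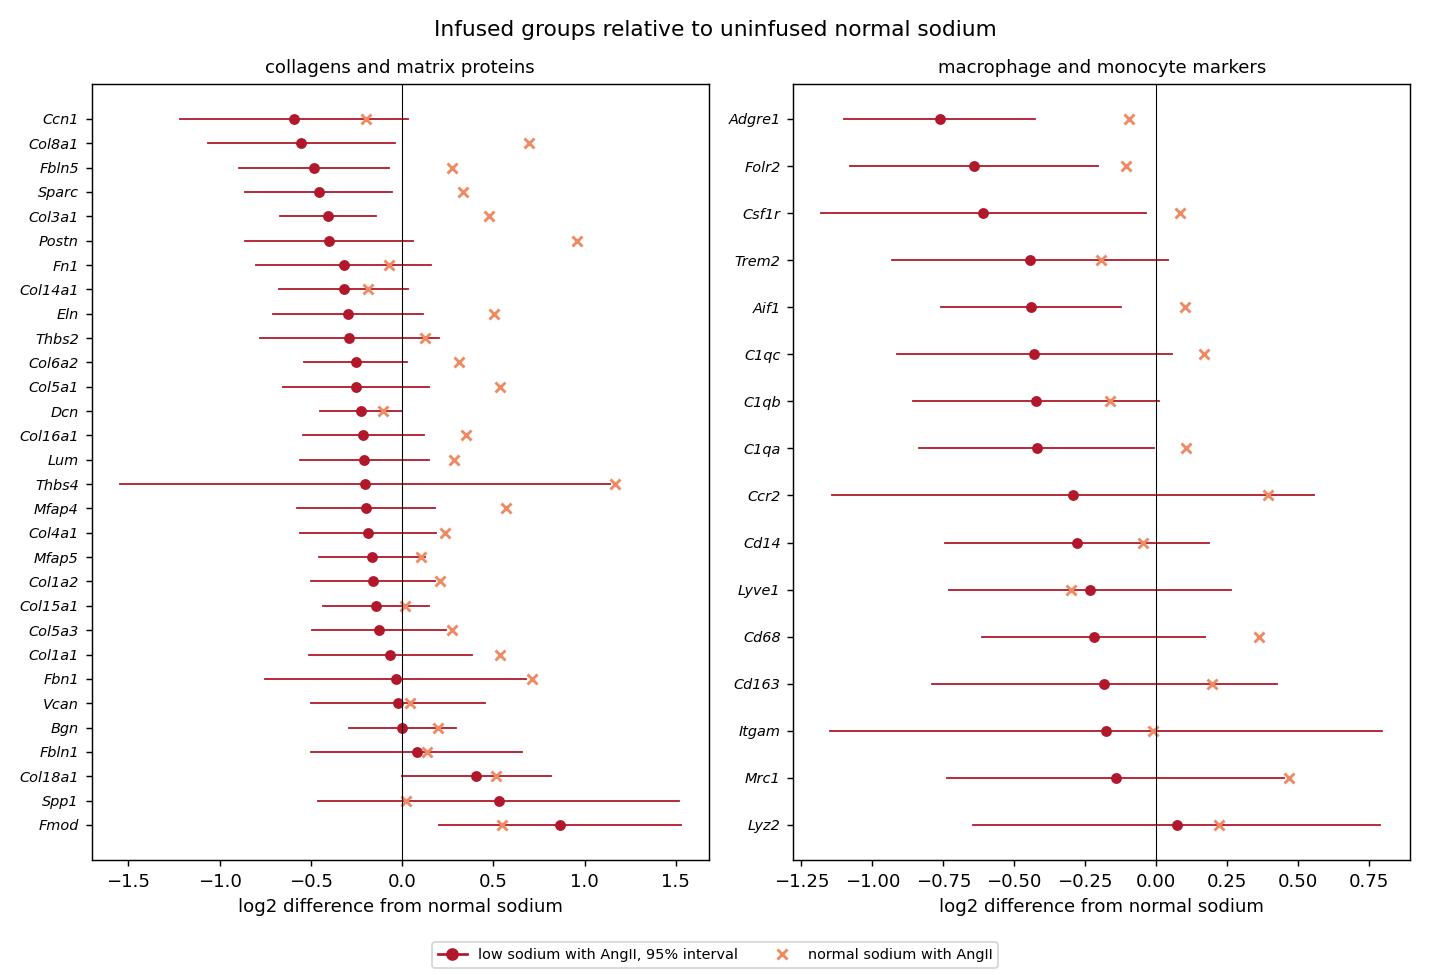
Log2 difference from normal sodium of each tested matrix gene (left) and macrophage marker (right), for low sodium with AngII (points with 95% limma intervals) and normal sodium with AngII (crosses). Both groups share the 3 normal sodium arrays: most matrix genes have the cross on the right of 0 and the point on the left of it, while the macrophage crosses scatter around 0 with a median of 0.09.

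Enzymes that process and crosslink collagen had 13 of 14 genes lower and a median of -0.21, with slide medians of -0.21, -0.19 and -0.41. On the lower side 3 were at an unadjusted p under 0.05, against 3.88% of all genes. Serpinh1, the collagen chaperone HSP47, had 853.3, 872.2 and 927.8 on low sodium with AngII, against 2074, 1181 and 1099 on normal sodium (-0.65 ± 0.21, and -0.37 without normal sodium replicate 1, its high array). Loxl2, a lysyl oxidase that crosslinks collagen, had 48.3, 55.8 and 61.0, against 67.9, 73.2 and 83.8 on normal sodium (-0.45 ± 0.17). Plod2, a lysyl hydroxylase, was the other one at an unadjusted p under 0.05, at -0.41 ± 0.17.

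Matrix proteases and their inhibitors had a median of -0.05, with 6 of 11 lower. On the lower side 2 were at an unadjusted p under 0.05, against 3.88% of all genes. The 2 at an unadjusted p under 0.05 were inhibitors of metalloproteinases, Timp1 with 104.1, 101.0 and 76.1 on low sodium with AngII, against 127.5, 126.4 and 128.6 on normal sodium (-0.46 ± 0.16), and Timp3 (-0.63 ± 0.24, and -0.39 without normal sodium replicate 1). TGF-beta and profibrotic signalling genes had a median of -0.12 (-0.24 to -0.04 with 1 array left out), with 11 of 16 lower and only Ltbp1, which stores latent TGF-beta in the matrix, at an unadjusted p under 0.05 (-0.37 ± 0.17, and -0.23 with array weights). That was 1 of 16 on the lower side, against 3.88% of all genes. Tgfb1 itself stood at -0.44 ± 0.26 and at -0.18 without low sodium with AngII replicate 3. Ccn2, the connective tissue growth factor, stood at -0.25 ± 0.40, and at 0.029 without normal sodium replicate 2. Fibroblast markers, with 9 of 10 lower and a median of -0.25, stood lower beside these lists. Of the 10, 2 were lower at an unadjusted p under 0.05, against 3.88% of all genes. Tcf21, a transcription factor of resident fibroblasts (-0.53 ± 0.17, and -0.21 with array weights), and the intermediate filament gene Vim (-0.31 ± 0.12) were these 2. The part of fibroblast content in the matrix values was not tested.

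Cardiac stress and fetal genes, which hypertrophied myocardium expresses, had 10 of 14 lower and a median of -0.19, and none at an unadjusted p under 0.05. The slides disagreed, with medians of 0.24, -0.53 and -0.15, and the list median ran from -0.33 to -0.03 with 1 array left out. Nppb, which encodes B-type natriuretic peptide, had 1289, 959.8 and 1093 on low sodium with AngII, against 1479, 2935 and 1165 on normal sodium (-0.63 ± 0.35), and without normal sodium replicate 2, its high array, the difference was -0.25. With slide as a replicate block, which kept the difference, Nppb was the one stress gene at an unadjusted p under 0.05 in limma (0.04144, adjusted 0.6286). Relative to normal sodium, Nppb stood at 0.81 ± 0.35 on normal sodium with AngII. Nppa, the atrial natriuretic peptide gene, varied more within groups than between them, with 338.7, 116.8 and 56.3 on low sodium with AngII, against 395.4, 521.8 and 65.3 on normal sodium (-0.87 ± 0.82, and -1.80 to -0.26 with 1 array left out).

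Of the other stress genes, the slow myosin heavy chain Myh7 stood at -0.19 ± 0.14 with an interval of -0.51 to 0.13 (-0.29 to -0.08 with 1 array left out), and the alpha skeletal actin gene Acta1 at 0.16 ± 0.31. Acta1 was -0.14 with array weights, -0.07 when low sodium with AngII replicate 1 was left out and -0.19 when normal sodium replicate 1 was. Myot, the Z-disc protein myotilin, had the smallest p of the list at 0.72 ± 0.35. In the natriuretic peptide system, median -0.09 with 7 of 9 lower, the receptor gene Npr1 had 161.2, 171.2 and 174.6, against 265.4, 199.7 and 221.5 on normal sodium (-0.43 ± 0.17). The protease that activates the atrial peptide, Corin, had 91.8, 127.0 and 117.8, against 49.3, 116.2 and 40.6 on normal sodium (0.85 ± 0.36), and its difference was 1.31 when normal sodium replicate 2 was left out and 0.55 when replicate 3 was.

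Globin and erythroid genes had the highest median of the lists, 0.56, with 7 of 8 tested higher and 4 at an unadjusted p under 0.05, against 2.34% of all genes, and slide medians of 0.42, 0.77 and 0.79. Hbb-b1, a beta globin gene, had 13110, 11890 and 13500 on low sodium with AngII, against 9694, 7704 and 8465 on normal sodium (0.58 ± 0.15, and 0.91 after normexp). Alas2, the erythroid enzyme that starts haem synthesis, had 247.1, 192.2 and 238.7, against 186.2, 100.4 and 121.1 on normal sodium (0.78 ± 0.26). Hba-a3 (0.80 ± 0.26) and Hbb-bs (0.70) were the others, and the groups did not overlap for any of the 4, as for 4.16% of all genes on the higher side. Globin genes are near-identical copies, so their probes may share signal. On normal sodium with AngII the median relative to normal sodium was 0.83 and on low sodium 0.42, so the normal sodium arrays had the lowest median level of all groups. These are markers of red cells left in the tissue, and their part in other results was not tested.

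Smooth muscle and pericyte markers had a median of 0.25, with 9 of 14 higher and 3 at an unadjusted p under 0.05, against 2.34% of all genes. Abcc9, a subunit of potassium channels, had 696.2, 654.0 and 840.5, against 549.9, 496.0 and 654.1 on normal sodium (0.37 ± 0.15, and 0.17 with array weights). Myh11, the smooth muscle myosin heavy chain, had 235.4, 140.7 and 263.4, against 126.1, 142.4 and 164.9 on normal sodium (0.52 ± 0.23), with overlapping groups and a value of 0.0044 with array weights. Lmod1, an actin nucleator of smooth muscle, was well above background on 2 of 3 low sodium with AngII arrays and 1 of 3 normal sodium arrays, and its difference was 1.505 from the probe counted here, 0.19 after normexp and 0.79 in the authors' table. Its second tested probe gave 0.38, with an unadjusted p of 0.2063 in limma. The median of the list was 0.27 on normal sodium with AngII, close to that with low sodium and AngII.

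Endothelial markers lay the other way, with 13 of 14 lower, a median of -0.19 and 4 at an unadjusted p under 0.05, against 3.88% of all genes. The slide medians were -0.29, -0.05 and -0.34, and the median was -0.10 without normal sodium replicate 1 and -0.36 without replicate 2. Cdh5, the cadherin of endothelial junctions, had 88.5, 76.8 and 76.9 on low sodium with AngII, against 118.1, 90.9 and 118.6 on normal sodium (-0.43 ± 0.14, and -0.27 after normexp). Aplnr, the apelin receptor, had 33.3, 37.1 and 29.8, against 58.9, 41.4 and 59.4 on normal sodium (-0.66 ± 0.22). Emcn, endomucin, stood at -0.31 ± 0.12 and the receptor kinase gene Tie1 at -0.58. In the endothelin system, with 4 of 7 genes tested and a median of -0.13, the receptor gene Ednrb was at an unadjusted p under 0.05 (-0.65 ± 0.28, and -0.34 without normal sodium replicate 1).

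**Figure D3:**
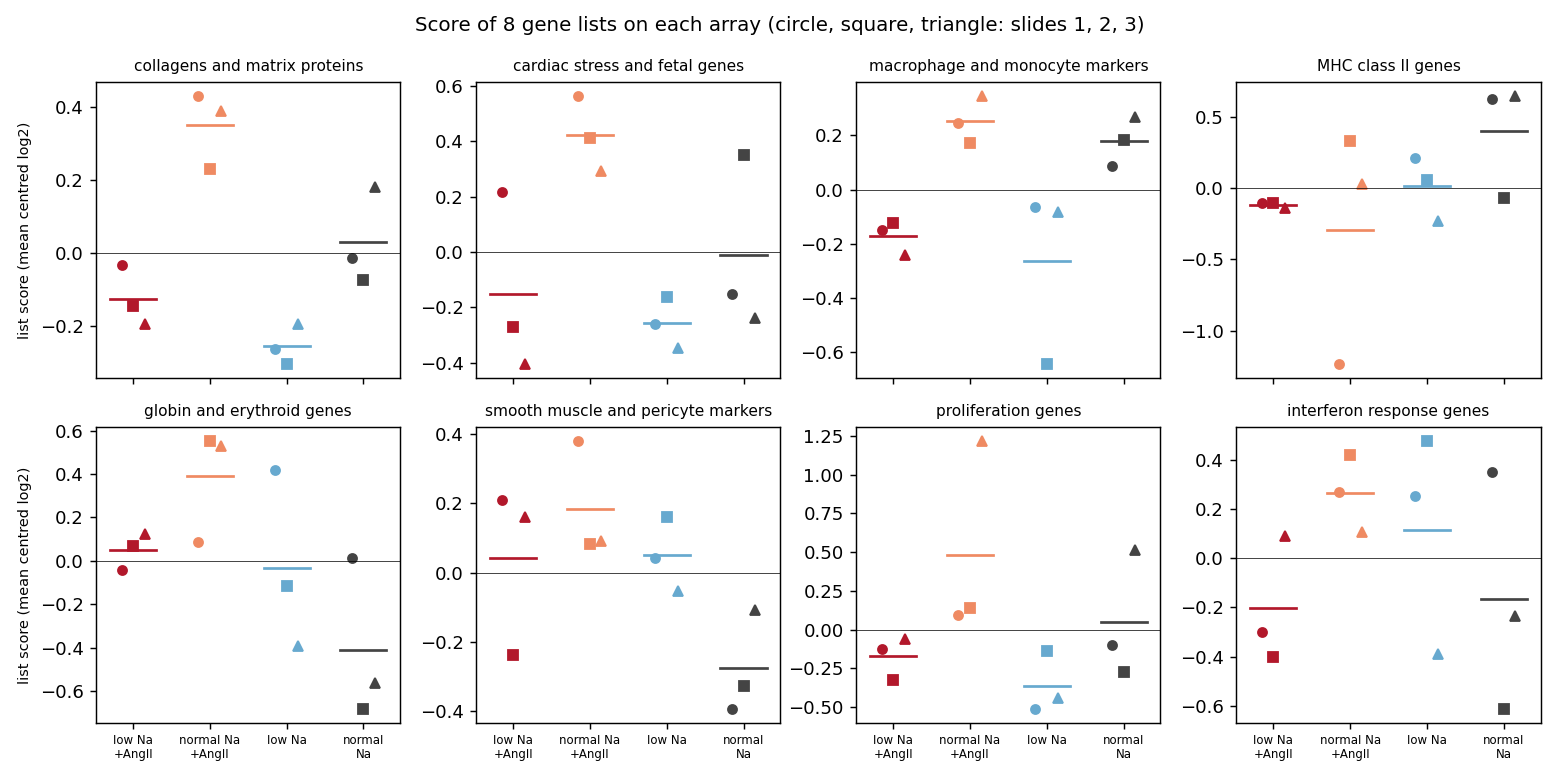
Score of 8 gene lists (mean over members of log2 signal centred on the mean of 12 arrays) on each array, with bars at group means and circle, square and triangle for slides 1, 2 and 3. The macrophage scores of low sodium with AngII lie below all 3 normal sodium scores, the matrix and stress scores overlap, and the globin score of normal sodium replicate 1 lies above that of low sodium with AngII replicate 1.

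Genes of the renin-angiotensin system had a median of -0.27, with 7 of 10 tested lower, and -0.14 without low sodium with AngII replicate 3. Agt, the precursor angiotensinogen, had 4.88, 3.93 and 2.89, against 5.86, 4.24 and 7.18 on normal sodium (-0.56 ± 0.24, and -0.33 after normexp). The groups overlapped in this gene. The receptor gene Agtr1a was level, with 11.2, 11.5 and 9.24, against 11.6, 11.6 and 10.67 on normal sodium, a difference of -0.09 ± 0.12 and an interval of 0.786-fold to 1.13-fold. Ace, the converting enzyme gene, was also level at 0.05 ± 0.18 (interval 0.790-fold to 1.35-fold), with -0.13 after normexp and -0.19 without low sodium with AngII replicate 1.

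Mineralocorticoid and glucocorticoid responsive genes had a median of 0.02, with 6 of 11 higher and none at an unadjusted p under 0.05. The aldosterone-induced kinase gene Sgk1 had the smallest p, with 77.2, 55.4 and 44.4, against 41.8, 31.8 and 44.2 on normal sodium (0.57 ± 0.26). Among 23 sodium, proton and potassium transport genes, the median was 0.05 and 15 were higher. At an unadjusted p under 0.05, 2 were higher, against 2.34% of all genes, and 1 was lower, against 3.88%. The lower one was Car4, described above (-0.82 ± 0.18), which had the smallest p of the list. On the higher side, the anion exchanger gene Slc4a3 had 1823, 1720 and 1737, against 1524, 1256 and 1352 on normal sodium (0.36 ± 0.11). Calcium handling genes had a median of -0.03, with 7 of 14 higher, and the L-type channel gene Cacna1c had 181.0, 202.7 and 170.8, against 152.1, 144.4 and 142.5 on normal sodium (0.33 ± 0.12).

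The energy metabolism genes lay near 0. Oxidative phosphorylation genes had a median of 0.03, with 29 of 44 higher, none at an unadjusted p under 0.05 and 40 with an interval within 1.5-fold, against 56% of all genes. Fatty acid oxidation genes, the main fuel pathway of the adult heart, had a median of -0.07, with 22 of 33 lower and only Hadhb, the beta subunit of the trifunctional protein, at an unadjusted p under 0.05 (-0.23 ± 0.10). That was 1 of 33 on the lower side, against 3.88% of all genes. Glucose uptake and glycolysis genes had a median of 0.04, with 15 of 25 higher. The glucose transporter gene Slc2a1 had 281.5, 195.8 and 225.9, against 171.6, 154.9 and 103.3 on normal sodium (0.73 ± 0.25), and the enolase gene Eno1 stood at 0.37 ± 0.15 (0.24 without low sodium with AngII replicate 1).

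Of the genes for fructose use and lipogenesis, 10 of 18 were lower, with a median of -0.02, and the aldolase gene Aldoc was at 0.56 ± 0.17 (0.37 after normexp). Cholesterol synthesis genes had a median of -0.03, with 10 of 18 lower and none at an unadjusted p under 0.05 (1, the sterol desaturase gene Sc5d, with slide as a replicate block). NADPH oxidase and antioxidant genes had a median of -0.13, with 18 of 25 lower and 4 at an unadjusted p under 0.05, against 3.88% of all genes, and -0.07 without low sodium with AngII replicate 3. Of these, 3 encode parts of the phagocyte oxidase: Cyba, the membrane subunit p22phox, had 398.5, 421.1 and 416.6, against 721.7, 451.7 and 593.4 on normal sodium (-0.49 ± 0.17), and Ncf4 (-0.48 ± 0.16, and -0.24 after normexp) and Ncf1 (-0.38) are cytosolic subunits. The remaining gene was Gclc, which starts glutathione synthesis (-0.33 ± 0.14, and -0.17 with array weights). Macrophages carry the same oxidase, and the part of the lower macrophage markers in these values was not tested.

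Proliferation genes had 24 of 29 lower and a median of -0.26, which came mostly from slide 3 (-0.54, against -0.07 on slide 1 and 0.02 on slide 2), and without normal sodium replicate 3 the median was the highest of its alternatives, 0.02. Only 1 of the 29 was lower at an unadjusted p under 0.05, against 3.88% of all genes. Ccnb1, the mitotic cyclin B1, was the one at an unadjusted p under 0.05, with 3.26, 2.79 and 3.70, against 4.77, 5.70 and 5.68 on normal sodium (-0.73 ± 0.30, and -0.44 after normexp). Interferon response genes had a median of -0.04, with 15 of 28 lower and slide medians of -0.75, 0.08 and 0.30. Bst2, the antiviral protein tetherin, had 424.3, 540.0 and 465.6, against 857.2 and 889.7 on the 2 normal sodium arrays that measured it (-0.88 ± 0.26), its spot on normal sodium replicate 1 being left out as an outlier. Irf7, which switches on type I interferon genes, had 184.6, 202.7 and 215.1, against 201.6, 114.5 and 173.2 on normal sodium (0.34 ± 0.29, and 0.10 without normal sodium replicate 2).

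Heat shock and unfolded protein response genes had a median of -0.17, with 20 of 23 lower and 3 at an unadjusted p under 0.05, against 3.88% of all genes, and the median was -0.10 when replicate 2 of low sodium with AngII was left out and -0.11 when replicate 2 of normal sodium was. The 3 were the endoplasmic reticulum chaperone gene Hsp90b1 (-0.44 ± 0.16), asparagine synthetase, Asns (-0.49 ± 0.21, and -0.24 after normexp), and the disulfide isomerase gene Pdia3 (-0.28 ± 0.13, and -0.16 without normal sodium replicate 2). Immediate early genes had a median of -0.22, with 16 of 23 lower and slide medians of -0.21, 0.15 and -0.35. Arc, described above as an immediate early gene (1.04 ± 0.24), is not a member of this list. The median was 0.03 when normal sodium replicate 1 was left out and -0.07 when replicate 3 of low sodium with AngII was. Ier5 had 179.8, 191.4 and 180.9, against 286.5, 249.4 and 281.2 on normal sodium (-0.56 ± 0.13), without overlap of the groups. Circadian clock genes had a median of 0.02, with 8 of 14 higher and none at an unadjusted p under 0.05.

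**Figure D4:**
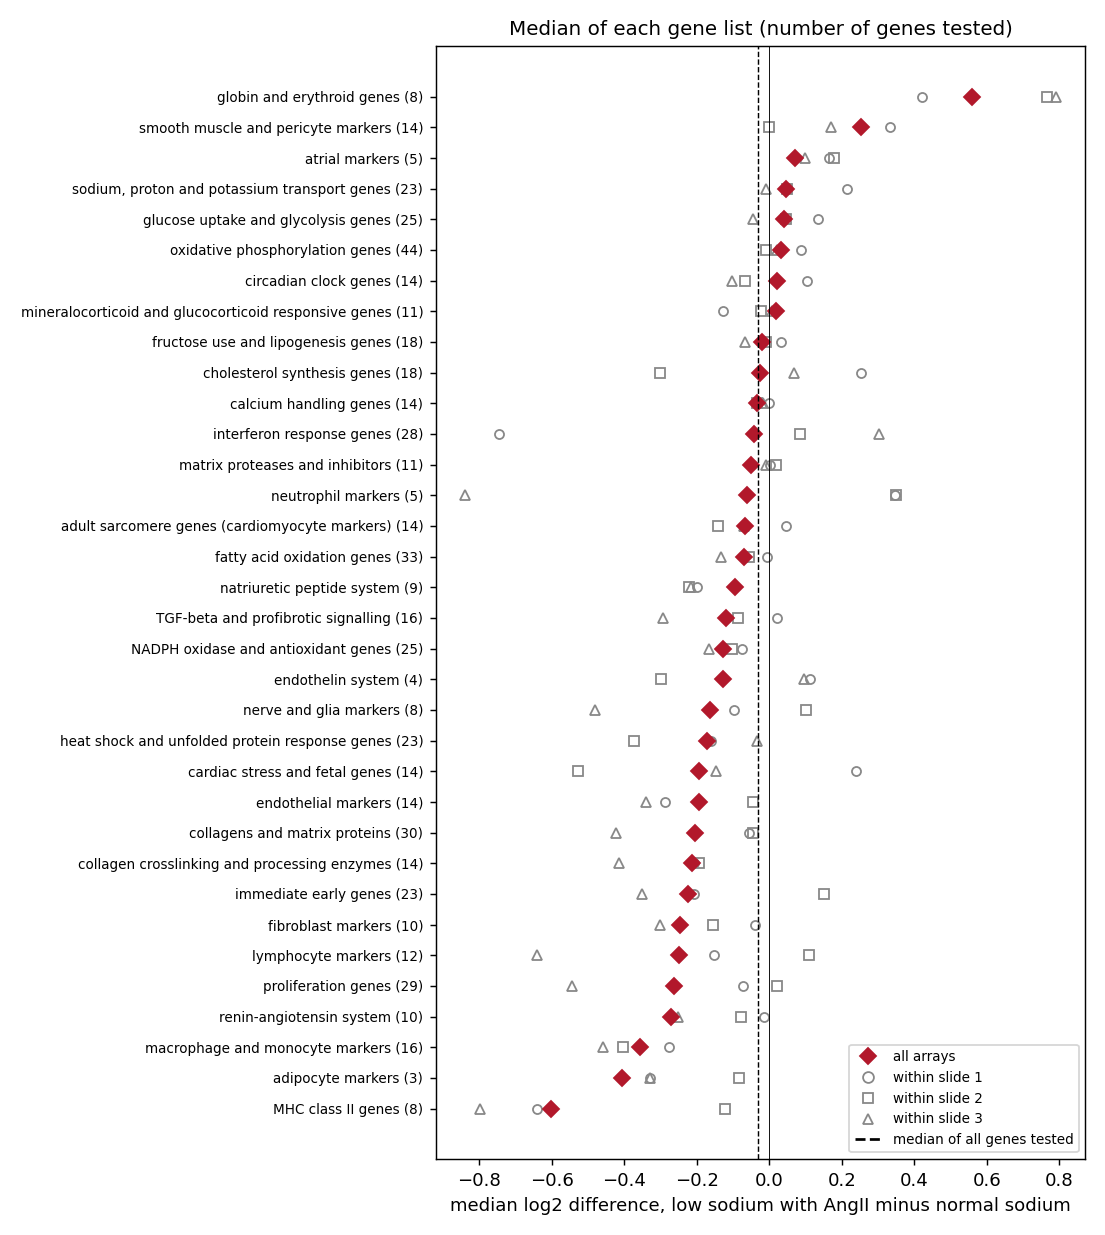
Median log2 difference (low sodium with AngII minus normal sodium) of each of 34 gene lists over all arrays (diamonds) and within slides 1 to 3 (circle, square and triangle), with the number of genes tested in brackets and the median of all genes, -0.03, as a dashed line. Globin genes lie highest (0.56) and MHC class II genes lowest (-0.60), and the interferon, neutrophil and proliferation lists differ between slides.

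Against the remaining groups the levels of 3 sets of genes can be placed as follows, with no call in any comparison. Plcd4, a phospholipase C, lay at the normal sodium level: it had 16.9, 17.5 and 22.3 on low sodium with AngII, against 19.7, 18.5 and 16.3 on normal sodium (0.05 ± 0.15, interval 0.819-fold to 1.31-fold), and 8.60, 6.71 and 6.57 on normal sodium with AngII. Relative to normal sodium, normal sodium with AngII stood at -1.32 for Plcd4, with an adjusted p of 0.0565 in limma. Matrix genes and the stress genes had medians of 0.28 (matrix) and 0.30 (stress) on normal sodium with AngII relative to normal sodium, and of -0.21 (matrix) and -0.19 (stress) on low sodium with AngII. On low sodium without infusion the medians relative to normal sodium were -0.32 (matrix) and -0.14 (stress). Adgre1, Mycn and Plk2, below normal sodium on low sodium with AngII, stood at -0.10 (Adgre1), -0.05 (Mycn) and -0.05 (Plk2) on normal sodium with AngII. These values share the normal sodium arrays.

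The opposite pairing of diet and infusion, normal sodium with AngII minus low sodium, shares no array with the main comparison, though it shares the slides. It had 0 of 20020 probes called by limma (smallest adjusted p 0.1318), and 1352 higher (6.75%) and 546 lower (2.73%) at an unadjusted p under 0.05. The difference of the differences, which equals the sum of the low sodium effects with and without AngII, was tested in the same fit and had no call either (0%, smallest adjusted p 0.1164), with 813 probes higher (4.06%) and 1695 lower (8.47%) at an unadjusted p under 0.05. In that test 21 of 30 matrix genes and 10 of 16 macrophage markers were lower at an unadjusted p under 0.05, against 9.27% of all genes. Col8a1 had -1.97 and Cd200r1 -1.57, each with an adjusted p of 0.1247 in limma. Cd200r1 entered the test only through the normal sodium groups, with and without AngII. This difference subtracts both, so a lower value of Cd200r1 was built into the filter. The means behind Col8a1 were 29.3 on low sodium with AngII and 43.0 on normal sodium, against 69.7 on normal sodium with AngII and 26.0 on low sodium.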

How the data were processed

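RNA of left ventricles was measured on 12 arrays, 4 groups of 3. The deposited scanner files hold intensity values, background-subtracted within each array by Feature Extraction 10.7.3.1, per the file headers (the submitters' processing notes name 11.0.1.1, with R 3.3.04 and limma), and other columns of 0 or 1 spot flags, also per the file headers. The authors' table holds log2 values of 20438 probes as deposited, with a normalisation not given in the sources used here.

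The processed intensity was taken as log2 minus the 75th percentile of the array. Control and outlier-flagged spots (296 to 421 per array) were left out, and spots averaged per probe. Probes well above background, in at least 0.5 of spots, on all 3 arrays of 1 group were tested: 20020 of 30367, of which 13280 had a symbol through RefSeq (GRCr8), for 11211 genes. In 60 probes 1 array value was missing. limma 3.58.1 (R 4.3.3, the data.table package, 1.17.8) fitted 1 mean per group over all 12 arrays, two-sided, with Benjamini-Hochberg adjustment at 0.05. The fit was tested on simulated data.

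The 34 lists (629 genes, 549 tested), the comparison and the naming rule were chosen with earlier results of these data known. Named were the 10 genes with the smallest p and groups apart in each direction, automatic symbols passed over, up to 3 members per list at an unadjusted p under 0.05 (else the one with the smallest p), and some genes quoted throughout (Ace, Acta1, Adgre1, Agtr1a, Ccn2, Col1a1, Col3a1, Irf7, Myh6, Myh7, Nppa, Nppb, Plcd4, Postn, Tgfb1, Timp1). Some genes that the rule named are not reported here. Replicate numbers pair the arrays, because each number is 1 slide in the file headers: after removing group means, same-numbered arrays of the compared groups correlated at 0.167 to 0.390 across probes in 3 of 3 pairs. Alternatives were normexp on the median pixel intensity (offset 50), quantile and median scaling, the authors' values, other filters on dim probes, array weights, slide as a replicate block, only the 6 arrays, the mean of a gene's probes, and leaving out each array. The number of arrays limits the precision.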

Additional observations from a re-analysis of the deposited data

How the results depend on the processing

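No probe was called under any alternative except without the filter on dim probes, where 1 was (the receptor kinase gene Ephb1, -1.97), and without normal sodium replicate 2. Leaving out 1 array gave 0 to 4 calls, 346 to 979 probes higher and 488 to 1227 lower at an unadjusted p under 0.05. The array weights gave 795 higher and 1457 lower, the 6 arrays alone 310 and 440, median scaling 386 lower and the authors' values 761 higher, against 473 higher and 693 lower. With slide as a replicate block, the paired analysis, 0 probes were called (smallest adjusted p 0.3643) and 646 were higher and 911 lower at an unadjusted p under 0.05, so it changed no call. Probes with an interval within 1.5-fold numbered 8221 to 13350 over the alternatives, against 10494 of 20020 in the main fit. Some alternatives tested other numbers of probes. The medians of the matrix (-0.26 to -0.12), stress (-0.33 to -0.03) and macrophage lists (-0.42 to -0.30) stayed below 0 throughout. Of 1320 recomputed values of single genes 17 changed sign. Normexp turned Col1a1 (0.064), Ace (-0.13) and Plcd4 (-0.016), the authors' values turned Postn (0.16) and Ace (-0.11), and array weights turned Acta1 (-0.14), Agtr1a (0.038) and Ace (-0.0087). With 1 array left out, Col1a1 ran from -0.23 to 0.19, Agtr1a from -0.15 to 0.013, Plcd4 from -0.073 to 0.13, Ace from -0.19 to 0.23, Acta1 from -0.19 to 0.45 and Ccn2 from -0.43 to 0.029. The causes were not tested. Among the 34 list medians, 17 kept their sign under every alternative. Differences of the named genes near background shrank under normexp.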
